A study of Drosophila melanogaster with 15 samples.

Results

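Genes for translation initiation factors and for aminoacyl-tRNA synthetases were followed through larval eye discs of Drosophila melanogaster that expressed Yap or Yki proteins of several animals and of an animal relative. The genes were all those whose symbol in the deposited tables starts with eIF or Aats-, and whose level reached 1 FPKM (fragments scaled to transcript length and to the size of the library) in at least 3 of the 15 libraries. Of 48 genes with such a symbol, 45 met this rule, out of 14671 genes in the table; 24 carry an eIF symbol and 21 an Aats- symbol. In 43 of the 45 the level was at least 1 FPKM in every library. The remaining members, eIF4E-3 and eIF4E-6, reached it in 4 libraries each, and eIF4E-4, eIF4E-5 and eIF4E-7 did not reach it in 3. Factors and synthetases listed under other symbols are outside this rule.

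The study compared 5 groups of 3 libraries, each made from polyadenylated RNA of 25 to 30 third-instar eye discs pooled. GMR-Gal4, which drives expression in the cells behind the morphogenetic furrow where the retina differentiates, and UAS-eGFP were present in every group, as was the flies' own yki gene. The 4 construct groups added UAS transgenes: Yap of the choanoflagellate Monosiga joined to a human segment (called TBD in the genotype and TEAD in the description; Monosiga Yap-TBD below), Trichoplax Yap S81A, from a placozoan and with that substitution, Drosophila Yki with the S168A substitution (Yki S168A), and Monosiga Yap alone. The control discs carried the driver and eGFP only. The labels record normal eyes for the control and defects of differentiation for every construct, with strong ectopic proliferation added for Monosiga Yap-TBD and Trichoplax Yap S81A and a middle degree for Yki S168A. The GFP-positive GMR domain was cut out of the discs, so a library mixes all the cell types of that domain. The labels do not say whether the libraries of a group came from separate crosses, and p-values measure the spread between these libraries only.

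Yki and Yap are coactivators restrained by the Hippo pathway that act with DNA-binding partners such as the TEAD protein Scalloped, and in fly discs they drive growth and division. Translation starts when eIF2 brings the initiator tRNA to the small ribosomal subunit, eIF3 holds that complex together, and the cap-binding factors of the eIF4 group bring in the mRNA; eIF2B recharges eIF2 with GTP after each round. Aminoacyl-tRNA synthetases load each tRNA with its amino acid, with separate enzymes in many cases for the cytosol and for mitochondria.

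The level of yki was 408 to 706 FPKM in the Yki S168A libraries and 66.8 to 89.0 FPKM in all other libraries, as their labels imply. Between 8194 and 9104 genes reached 1 FPKM in a library, and the depth relative to control replicate 1, estimated from the steps between low values, ran between 0.862 (Monosiga Yap-TBD replicate 2) and 1.48 (Yki S168A replicate 3). The summed level of 8 photoreceptor and retina markers (elav, chp, gl, sev, lz, ro, boss and futsch) was 77.1 to 85.2 FPKM with Monosiga Yap-TBD, 155 to 208 FPKM with Trichoplax Yap S81A, 167 to 217 FPKM with Yki S168A, 329.9 to 433 FPKM with Monosiga Yap and 348.5 to 454 FPKM in the control. None of these markers was at 0 in a whole group. Against the control 8, 5, 6 and 0 of the 8 fell in those construct groups (limma adjusted p under 0.05). Of all genes tested, 12.0%, 6.09% and 6.52% fell and 12.6%, 6.09% and 5.42% rose with Monosiga Yap-TBD, Trichoplax Yap S81A and Yki S168A. With Monosiga Yap 0.326% were called. The summed level of 8 hemocyte markers was 43.6 to 65.5 FPKM with Monosiga Yap-TBD, 36.7 to 90.1 FPKM with Trichoplax Yap S81A, 43.9 to 56.4 FPKM with Yki S168A, 62.7 to 122.5 FPKM with Monosiga Yap and 129 to 156 FPKM in the control, and 2, 1, 3 and 0 of the 8 fell in the same construct groups. In 6 fits that each left out 1 library, the Cg25C call was lost in 5 with Monosiga Yap-TBD and 4 with Yki S168A. The Pxn call with Yki S168A was lost in all 6. Among the retina markers, calls for gl, futsch and boss with Yki S168A were lost in 4, 3 and 1 such fits, and that for boss with Trichoplax Yap S81A in 2. Of 5 glia markers, 3 fell and 1 rose with Monosiga Yap-TBD, 1 fell and 1 rose with Trichoplax Yap S81A, 2 fell with Yki S168A and 0 were called with Monosiga Yap, and the glia sum was 403 to 504.9 FPKM over all libraries. Leaving out a library ended the calls for Gli and loco with Monosiga Yap-TBD in 4 and 3 of 6 fits. It ended that for repo with Yki S168A in 2, and those for nrv2 and loco with Trichoplax Yap S81A in 2 and 1. Of 4 antennal disc markers, ct fell with Monosiga Yap-TBD, Trichoplax Yap S81A and Yki S168A. The marker ss fell with Monosiga Yap-TBD, a call lost without control replicate 3 (limma adjusted p = 0.0522). Dll rose with Trichoplax Yap S81A and Yki S168A, to means of 4.37 and 7.70 FPKM, against 0.395 FPKM in the control. None of 5 muscle markers tested was called against the control. The part of these shifts in cell markers in the results that follow was not tested. In pooled tissue, fewer cells of a type and less RNA per cell cannot be told apart. Trichoplax Yap S81A replicate 1 had a summed level of 4503 FPKM for 5 fat body markers, against at most 44.9 FPKM in each other library. Without that library 4 of the photoreceptor and retina markers and 2 of the hemocyte markers fell with Trichoplax Yap S81A.

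The members spanned a wide range of levels on this scale, which is set per transcript length. Translation factor eIF-5A, with a mean of 3361 FPKM over the 15 libraries, and the RNA helicase eIF-4a, with 2776 FPKM, stood at the top. The 5 eIF3 subunit genes among the members lay between 260.1 FPKM (eIF3-S10) and 484 FPKM (eIF3-S9), and the single eIF2 member, eIF-2beta, at 246 FPKM. The 5 subunit genes of eIF2B were close to one another and far lower, between 30.9 FPKM (eIF2B-delta) and 38.3 FPKM (eIF2B-beta). The 15 cytosolic synthetases ran between 22.5 FPKM (Aats-cys) and 154.5 FPKM (Aats-asp), and the 6 mitochondrial synthetases between 4.90 FPKM (Aats-met) and 15.4 FPKM (Aats-phe). The coefficient of variation within groups had a median of 10.9% over the members and 16.5% over all 9213 genes tested. It was lowest in eIF3 (5.74%) and highest in mitochondrial synthetases (24.1%), whose levels are low.

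With Monosiga Yap-TBD, 13 of the 45 members changed against the eGFP control, 10 of them upwards, and the rises were in cytosolic synthetases, in eIF2 and eIF2B subunits and in eIF6. Differences were tested with limma on log2(FPKM + 1) in 1 fit of all 15 libraries, with p adjusted over 9213 genes and a call at an adjusted p under 0.05; folds are ratios of mean FPKM. The 28.9% of members called compares with 24.6% of all genes tested (percent called, either direction), so the share is close to the background; 10 members rose, against 12.6% of all genes, and 3 fell, against 12.0% of all genes. The median log2 fold change was 0.20 over the members and 0.01 over all genes, and 31 of the 45 members lay above 0, against 51.15% of all genes; the median over the members was 0.129 without Monosiga Yap-TBD replicate 2. Trichoplax Yap S81A changed 5 members (11.1%, against 12.2% of all genes): Aats-ile, Aats-thr and eIF-2beta rose, against 6.09% of all genes, and eIF-4a and eIF4E-3 fell, against 6.09% of all genes. Yki S168A changed 4 members (8.89%, against 11.9% of all genes), the same genes without eIF-2beta: 2 rose, against 5.42% of all genes, and 2 fell, against 6.52% of all genes. With size factor scaling 4 members rose and 1 fell with Trichoplax Yap S81A, and 5 rose and 1 fell with Yki S168A. With Monosiga Yap alone, limma called none of the 45 members (2 at an unadjusted p under 0.05, eIF4E-3 and Aats-thr), in a comparison in which 0.326% of all genes were called. These 4 comparisons share the control libraries. Of the 8 photoreceptor and retina markers, 8 fell with Monosiga Yap-TBD, 5 with Trichoplax Yap S81A, 6 with Yki S168A and 0 with Monosiga Yap. The member eIF4E-3 met the rule through the 3 control libraries and 1 other, so it had to differ; without it, 12, 4, 3 and 0 of 44 members were called in these comparisons.

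The number called depends on single libraries. With Monosiga Yap-TBD against the control it was 8 without Monosiga Yap-TBD replicate 1, 5 without replicate 2, and 8, 8 and 5 without control replicates 1, 2 and 3. With Trichoplax Yap S81A it was 3 and 2 without replicates 2 and 3, 5 without replicate 1 (the library with fat body transcripts), and 3, 3 and 2 without control replicates 1, 2 and 3. With Yki S168A it was 2 without its replicate 3 or without any 1 of the control libraries.

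**Figure D1:**
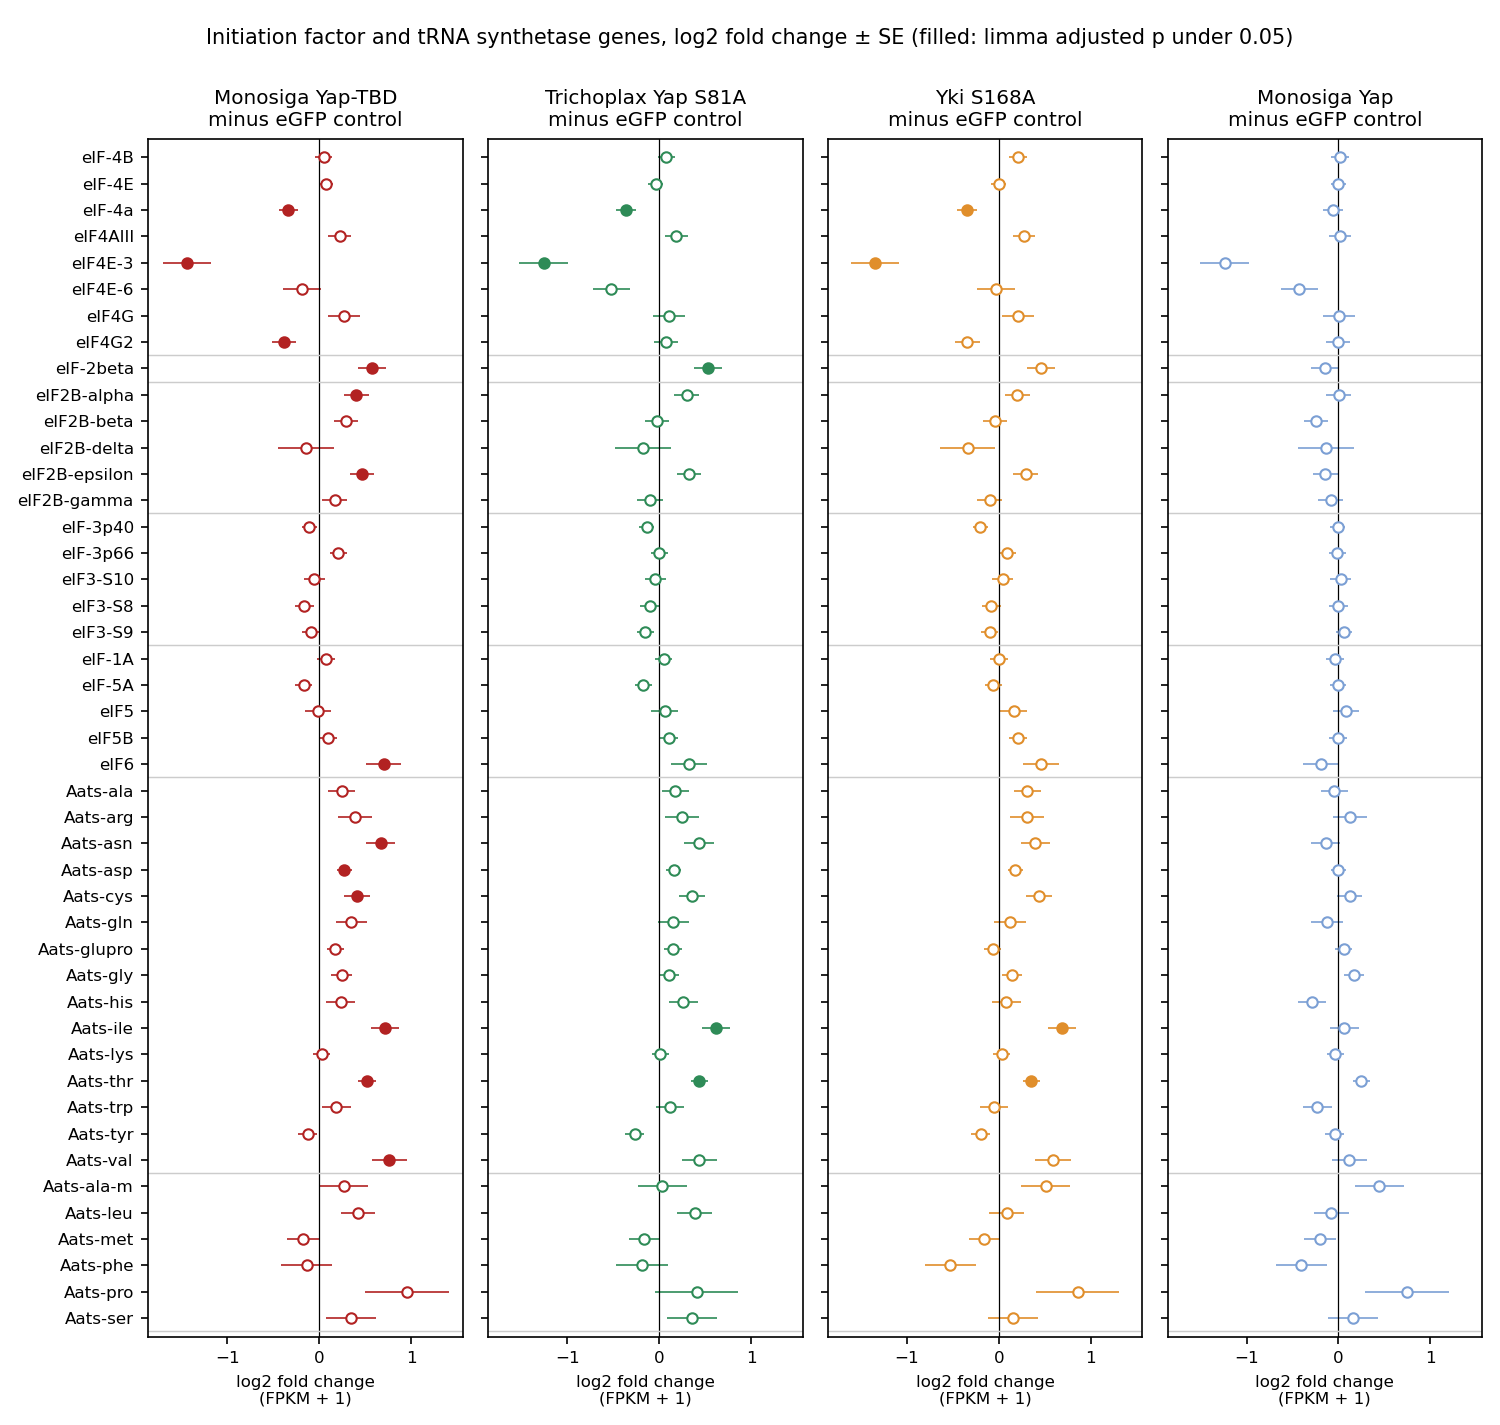
Log2 fold change in FPKM + 1 of each of the 45 members (rows, grouped by role with grey lines: eIF4, eIF2, eIF2B, eIF3, other eIF, cytosolic and mitochondrial synthetases) for each construct minus the eGFP control; points are limma estimates, bars are the standard error, and filled points have an adjusted p under 0.05. Filled points number 13 for Monosiga Yap-TBD, 5 for Trichoplax Yap S81A, 4 for Yki S168A and 0 for Monosiga Yap, with eIF4E-3 at the far left of every panel.

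Joining the human segment to Monosiga Yap went with rises only among the members that passed the test. Against Monosiga Yap, 11 of 45 members rose with Monosiga Yap-TBD and none fell (24.4% called, against 26.5% of all genes; 14.3% of all genes rose and 12.2% fell). The risers were Aats-asn, Aats-asp, Aats-his, Aats-ile, Aats-thr, Aats-val, eIF-2beta, eIF2B-alpha, eIF2B-beta, eIF2B-epsilon and eIF6. The median log2 fold change was 0.21 over the members and 0.03 over all genes, with 33 of 45 members above 0, against 52.7% of all genes. Without Monosiga Yap replicate 3 the count was 18, without replicate 1 or 2 it was 7, and without Monosiga Yap-TBD replicates 1 and 2 it was 7 and 6; in a fit of these 2 groups alone it was 5. Limma also called 1 member lower with a pseudocount of 0.1, with size factor scaling, with the replicate block or without Monosiga Yap replicate 3. The median was 0.108 and 0.105 without Monosiga Yap replicates 1 and 2, 0.312 without replicate 3 and 0.128 without Monosiga Yap-TBD replicate 2.

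Cytosolic synthetases, the role with the most members, held 6 of the 10 that rose with Monosiga Yap-TBD against the control. There 6 of 15 rose (40%, against 12.6% of all genes) and none fell, and 14 of 15 had a positive estimate, against 51.15% of all genes. Against Monosiga Yap 6 of 15 rose with Monosiga Yap-TBD (40%, against 14.3% of all genes), and among eIF2B subunits it was 3 of 5 (60%). With Trichoplax Yap S81A and with Yki S168A, 2 of 15 rose against the control (13.3% each, against 6.09% and 5.42% of all genes). With Monosiga Yap none was called. The enzyme that charges asparagine tRNA, Aats-asn (2L 19129864 to 19131952, minus strand, build dm3), had 131, 171 and 134 FPKM with Monosiga Yap-TBD, 114, 117 and 139 FPKM with Trichoplax Yap S81A and 109, 111 and 141 FPKM with Yki S168A. It had 72.1, 74.2 and 103 FPKM with Monosiga Yap and 99.6, 89.9 and 83.0 FPKM in the control. All Monosiga Yap-TBD libraries were above every control and every Monosiga Yap library. The mean was 1.60-fold that of the control (log2 fold change 0.67 ± 0.16 SE, adjusted p = 0.00734) and 1.75-fold that of Monosiga Yap (adjusted p = 0.00192), by limma. Trichoplax Yap S81A and Yki S168A libraries also lay above all control libraries, but these differences did not pass (limma adjusted p = 0.0971 and 0.134). Monosiga Yap replicate 3 stood above the other libraries of its group and overlapped the control.

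Isoleucyl-tRNA synthetase, Aats-ile (3L 22281762 to 22285918, plus strand), rose against the control with Monosiga Yap-TBD, Trichoplax Yap S81A and Yki S168A. It had 65.4, 72.0 and 58.8 FPKM with Monosiga Yap-TBD, 53.8, 53.9 and 78.0 FPKM with Trichoplax Yap S81A and 59.9, 60.6 and 71.7 FPKM with Yki S168A. The level was 34.8, 41.6 and 48.3 FPKM with Monosiga Yap and 41.2, 38.2 and 38.6 FPKM in the control. No library of the first 3 construct groups overlapped the control, whereas Monosiga Yap did. Its mean was 1.66-fold that of the control with Monosiga Yap-TBD, 1.57-fold with Trichoplax Yap S81A and 1.63-fold with Yki S168A (limma adjusted p = 0.00379, 0.0175 and 0.00995), and 1.57-fold that of Monosiga Yap with Monosiga Yap-TBD (limma adjusted p = 0.00656). The Trichoplax Yap S81A group held 1 high library, replicate 3, and the limma adjusted p was 0.0781 without it, 0.0603 without control replicate 2 and 0.0549 without control replicate 3.

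Threonyl-tRNA synthetase, Aats-thr (2L 12103734 to 12106894, plus strand), rose in the same 3 construct groups. Its level was 154, 153 and 133 FPKM with Monosiga Yap-TBD, 143, 129.8 and 142 FPKM with Trichoplax Yap S81A and 139.9, 120.3 and 132 FPKM with Yki S168A. It was 117, 118 and 128 FPKM with Monosiga Yap and 105, 101 and 99.7 FPKM in the control. All 12 construct libraries, Monosiga Yap included, were above the highest control library. The rise was 1.44-fold with Monosiga Yap-TBD (95% interval of the log2 fold change 0.32 to 0.72), 1.36-fold with Trichoplax Yap S81A and 1.28-fold with Yki S168A (limma adjusted p = 0.000965, 0.00666 and 0.0231). With Monosiga Yap the mean was 1.19-fold that of the control and did not pass after adjustment over all genes (limma adjusted p = 0.759). For Yki S168A the call ended without its replicate 1 (limma adjusted p = 0.101) or 3 (0.0756), without control replicates 1, 2 or 3 (0.0526, 0.071 and 0.0679), or in a fit of the 2 groups alone (0.0592). Monosiga Yap-TBD exceeded Monosiga Yap 1.21-fold (limma adjusted p = 0.0454), and that call ended without replicate 1 or 2 of either group (0.123, 0.115, 0.153 and 0.154). It also ended with size factor scaling (limma adjusted p = 0.0801), with the replicate block (0.0578) or in a fit of these 2 groups alone (0.166).

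Valyl-tRNA synthetase, Aats-val (2R 9086356 to 9090217, plus strand), had 27.1, 33.2 and 27.0 FPKM with Monosiga Yap-TBD, 21.0, 19.5 and 29.5 FPKM with Trichoplax Yap S81A and 26.4, 23.9 and 26.7 FPKM with Yki S168A. It had 13.5, 21.6 and 20.5 FPKM with Monosiga Yap and 18.9, 13.7 and 17.9 FPKM in the control. Every library of the first 3 construct groups lay above the highest control library. Only the 1.73-fold rise with Monosiga Yap-TBD passed against the control (limma adjusted p = 0.00976, and 0.0508 without control replicate 2); with Yki S168A the mean was 1.52-fold and with Trichoplax Yap S81A 1.39-fold that of the control (limma adjusted p = 0.0625 and 0.168). Against Monosiga Yap the Monosiga Yap-TBD mean was 1.57-fold (limma adjusted p = 0.0233), and this call ended without Monosiga Yap replicate 1 (0.108) or Monosiga Yap-TBD replicate 2 (0.099), or in a fit of these 2 groups alone (0.0724).

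Aspartyl-tRNA synthetase, Aats-asp (2R 8767824 to 8770675, plus strand), the most abundant synthetase here, rose by a small amount. It had 181, 169 and 163 FPKM with Monosiga Yap-TBD, 164, 152 and 159 FPKM with Trichoplax Yap S81A and 153, 157 and 171 FPKM with Yki S168A. The others were at 144, 135 and 145 FPKM with Monosiga Yap and 144, 146 and 135 FPKM in the control. The rise with Monosiga Yap-TBD was 1.21-fold over the control and also 1.21-fold over Monosiga Yap (limma adjusted p = 0.0275 and 0.0248). The call against the control ended without Monosiga Yap-TBD replicate 1 (limma adjusted p = 0.114) or 2 (0.064) and without control replicate 1 (0.0583) or 3 (0.0925), and that against Monosiga Yap without Monosiga Yap replicate 2 (0.0867) and Monosiga Yap-TBD replicates 1 (0.105) and 2 (0.0599). Both calls also ended in a fit of the 2 groups compared alone (limma adjusted p = 0.0721 against the control and 0.129 against Monosiga Yap).

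The last synthetases called were those for cysteine and histidine. Aats-cys rose 1.35-fold against the control with Monosiga Yap-TBD, with means of 24.8 ± 0.957 FPKM with Monosiga Yap-TBD and 18.3 ± 0.798 FPKM in the control (SD, n = 3 libraries each, limma adjusted p = 0.0457), and no single library could be left out without ending that call (adjusted p 0.0689 to 0.126). Its mean was 1.38-fold that of the control with Yki S168A, just outside the threshold (limma adjusted p = 0.0594). Aats-his rose 1.45-fold with Monosiga Yap-TBD over Monosiga Yap (limma adjusted p = 0.0246), where the control lay between these groups: the means were 83.0 ± 13.7 FPKM with Monosiga Yap-TBD, 57.5 ± 8.47 FPKM with Monosiga Yap and 70.6 ± 11.8 FPKM in the control. Without replicate 1 or 2 of Monosiga Yap (0.0738 and 0.0946) or of Monosiga Yap-TBD (0.0557 and 0.121) the Aats-his call ended, as it did in a fit of these 2 groups alone (0.0758). Of the 8 other cytosolic synthetases none was called in any comparison: Aats-lys differed least between Monosiga Yap-TBD and the control, with a log2 fold change of 0.03 (95% interval -0.18 to 0.23), and Aats-tyr was the one whose estimate was negative in each comparison with the control. Aats-tyr averaged 87.8 ± 8.60 FPKM with Trichoplax Yap S81A and 105 ± 6.89 FPKM in the control (limma adjusted p = 0.119). The bifunctional glutamyl-prolyl enzyme gene, Aats-glupro, was not called either, with 70.6, 69.1 and 71.6 FPKM with Monosiga Yap-TBD and 62.7, 59.0 and 65.6 FPKM in the control (limma adjusted p = 0.21).

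**Figure D2:**
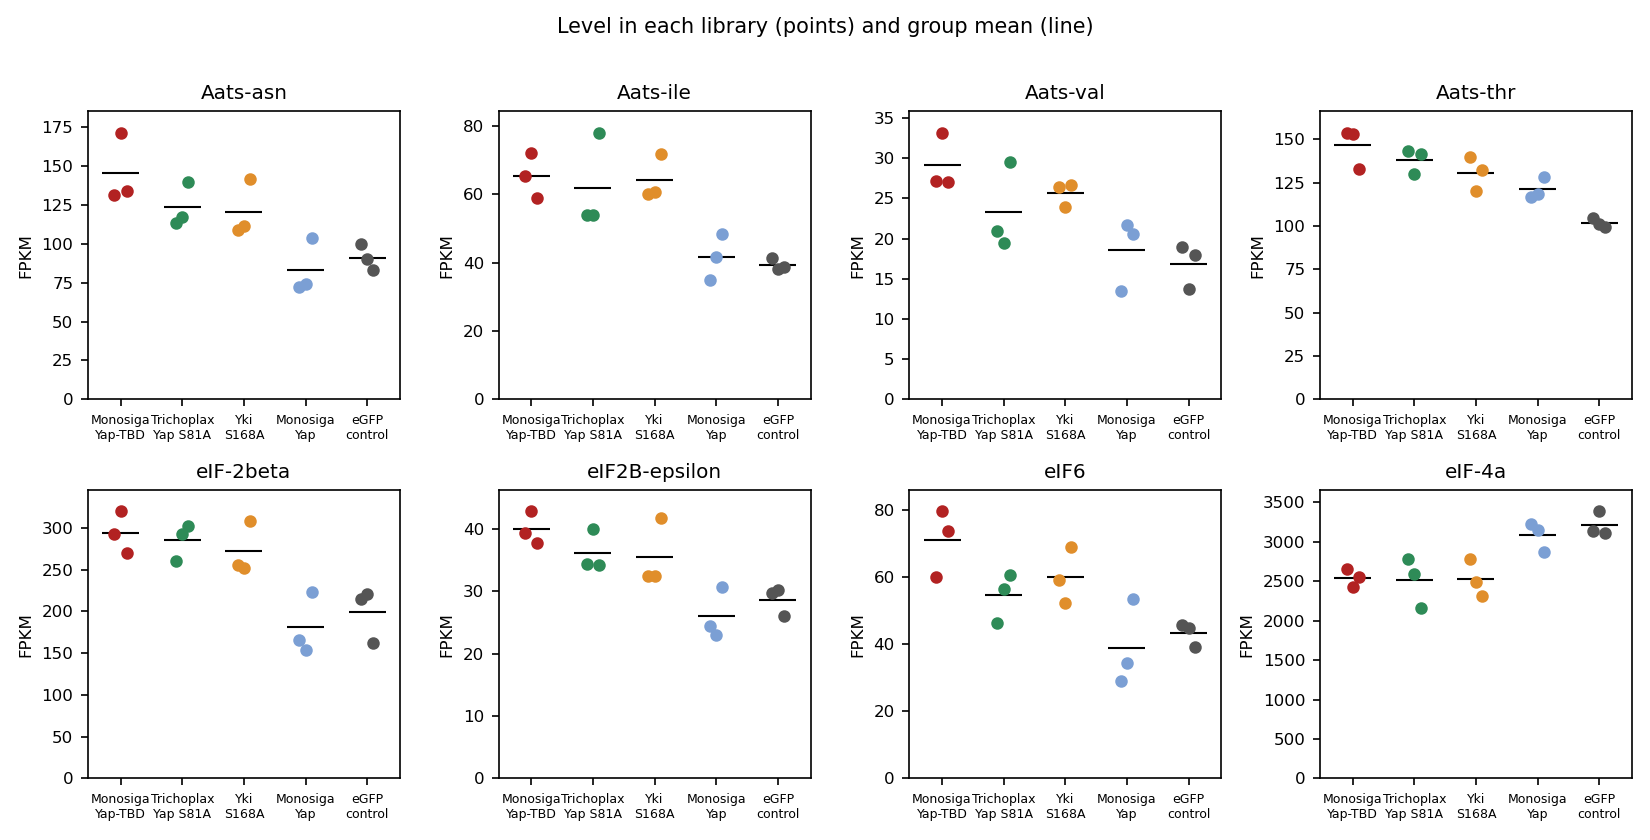
FPKM of 8 members in each library (points, 3 per group) with the group mean (line), for the 4 construct groups and the eGFP control. The Monosiga Yap-TBD points lie above all control points in the first 7 panels and below them for eIF-4a, and the Monosiga Yap points overlap the control in every panel but that of Aats-thr.

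The 6 mitochondrial synthetases were not called in any of the comparisons. The most abundant, Aats-phe, had 16.4, 21.6 and 11.9 FPKM with Monosiga Yap-TBD, 14.1, 18.1 and 15.1 FPKM with Trichoplax Yap S81A and 8.59, 13.8 and 14.9 FPKM with Yki S168A. It had 14.99, 8.35 and 18.6 FPKM with Monosiga Yap and 21.2, 18.4 and 14.7 FPKM in the control, so that all groups overlapped. Its log2 fold change with Monosiga Yap-TBD against the control was -0.14 (95% interval -0.74 to 0.46). That interval holds the median of the cytosolic enzymes in this comparison (0.27) but not their largest rise (0.76). The largest estimate was that of Aats-pro, with 5.63, 17.9 and 13.0 FPKM in the Monosiga Yap-TBD libraries and 4.11, 5.65 and 6.14 FPKM in the control libraries (2.30-fold, limma adjusted p = 0.15); its variation within groups was 40.7%. Aats-leu had 8.45, 9.51 and 7.57 FPKM with Monosiga Yap-TBD, above every control library at 6.04, 5.91 and 6.31 FPKM, and did not pass (limma adjusted p = 0.126).

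The subunit genes of eIF2 and of its exchange factor eIF2B moved in part. The beta subunit of eIF2, eIF-2beta (3L 12518191 to 12519837, minus strand), had 293, 319.8 and 270.4 FPKM with Monosiga Yap-TBD, 261, 293 and 303 FPKM with Trichoplax Yap S81A and 256, 252 and 308 FPKM with Yki S168A. The level was 166, 154 and 223 FPKM with Monosiga Yap and 215, 221 and 162 FPKM in the control. The first 3 construct groups lay above all control libraries, and Monosiga Yap replicate 3 was above every control library while the other libraries of its group were not. The mean was 1.48-fold that of the control with Monosiga Yap-TBD and 1.43-fold with Trichoplax Yap S81A (limma adjusted p = 0.0138 and 0.0369), and with Yki S168A it was 1.37-fold and did not pass (limma adjusted p = 0.0712). Over Monosiga Yap, Monosiga Yap-TBD was 1.63-fold higher (limma adjusted p = 0.0032), and this call held in every alternative tried. The call for Monosiga Yap-TBD against the control ended without Monosiga Yap-TBD replicate 2 (limma adjusted p = 0.0603) or control replicate 3 (0.069). That for Trichoplax Yap S81A ended without its replicates 2 (0.0949) and 3 (0.129), without control replicates 1 (0.0555) and 3 (0.154), and under 3 other settings of the fit (0.0512 to 0.0608).

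Of the 5 eIF2B subunit genes, 2 rose with Monosiga Yap-TBD against the control (40%, against 12.6% of all genes). Over Monosiga Yap 3 rose with Monosiga Yap-TBD (60%, against 14.3% of all genes), and none was called in the other comparisons. The catalytic subunit gene, eIF2B-epsilon (X 1814199 to 1816917, minus strand), had 39.3, 42.8 and 37.7 FPKM with Monosiga Yap-TBD, 34.3, 40.02 and 34.3 FPKM with Trichoplax Yap S81A and 32.4, 32.4 and 41.7 FPKM with Yki S168A. It had 24.4, 22.9 and 30.7 FPKM with Monosiga Yap and 29.7, 30.2 and 26.1 FPKM in the control. The Monosiga Yap-TBD libraries exceeded all libraries of Monosiga Yap and of the control, 1.39-fold over the control (limma adjusted p = 0.0216) and 1.53-fold over Monosiga Yap (0.00417). The call against the control ended without Monosiga Yap-TBD replicate 1 (limma adjusted p = 0.0545) or 2 (0.0842) or control replicate 3 (0.0863). The regulatory subunit gene eIF2B-beta (X 2598609 to 2600099, plus strand) had 46.0, 51.5 and 42.6 FPKM with Monosiga Yap-TBD, 37.3, 37.2 and 37.8 FPKM with Trichoplax Yap S81A and 36.5, 32.0 and 42.9 FPKM with Yki S168A. It had 31.6, 27.4 and 37.5 FPKM with Monosiga Yap and 40.3, 36.9 and 36.7 FPKM in the control. It rose 1.45-fold over Monosiga Yap (limma adjusted p = 0.00808, and 0.059 in a fit of these 2 groups alone) and was 1.23-fold the control mean, without a call (0.13). The other regulatory subunit gene that rose, eIF2B-alpha, averaged 40.03 ± 3.78 FPKM with Monosiga Yap-TBD, 30.3 ± 4.80 FPKM with Monosiga Yap and 30.1 ± 2.69 FPKM in the control (SD, n = 3 libraries each), with a limma adjusted p of 0.0451 over Monosiga Yap and 0.0457 over the control. Both eIF2B-alpha calls were lost when any 1 of several libraries was left out: Monosiga Yap-TBD replicates 1 or 2 (0.153 and 0.124 against the control, 0.151 and 0.125 against Monosiga Yap), Monosiga Yap replicates 1 or 2 (0.129 and 0.16), or any control library (0.0958, 0.0551 and 0.157). The remaining subunit genes, eIF2B-gamma and eIF2B-delta, were not called; eIF2B-delta varied most, with 36.6, 28.1 and 26.9 FPKM with Monosiga Yap-TBD and 39.7, 22.4 and 42.4 FPKM in the control.

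None of the 5 eIF3 subunit genes among the members was called in any comparison, although they were abundant and varied little. These are a part of the complex: other eIF3 subunit genes carry other symbols. Of those, Adam (eIF3j), CG5642 (eIF3l) and CG9769 (eIF3f1) were called in some comparisons, as given below. The scaffold subunit gene eIF3-S9 (2R 13423718 to 13426647, plus strand) had 498, 448 and 466 FPKM with Monosiga Yap-TBD, 492, 439.6 and 430.1 FPKM with Trichoplax Yap S81A and 480.2, 476 and 449 FPKM with Yki S168A. It had 566, 533 and 473 FPKM with Monosiga Yap and 504, 491 and 513 FPKM in the control. The log2 fold changes of the 5 genes with Monosiga Yap-TBD against the control ran between -0.16 (eIF3-S8) and 0.20 (eIF-3p66). For eIF3-S9 that change was -0.10 (95% interval -0.29 to 0.10), and against Monosiga Yap it was -0.15 (95% interval -0.34 to 0.04), bounds that lie below the estimates for eIF-2beta and eIF2B-epsilon; the difference between these genes was not itself tested. With Trichoplax Yap S81A and Yki S168A the eIF3-S9 means were 0.903-fold and 0.933-fold that of the control (limma adjusted p = 0.324 and 0.54).

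**Figure D3:**
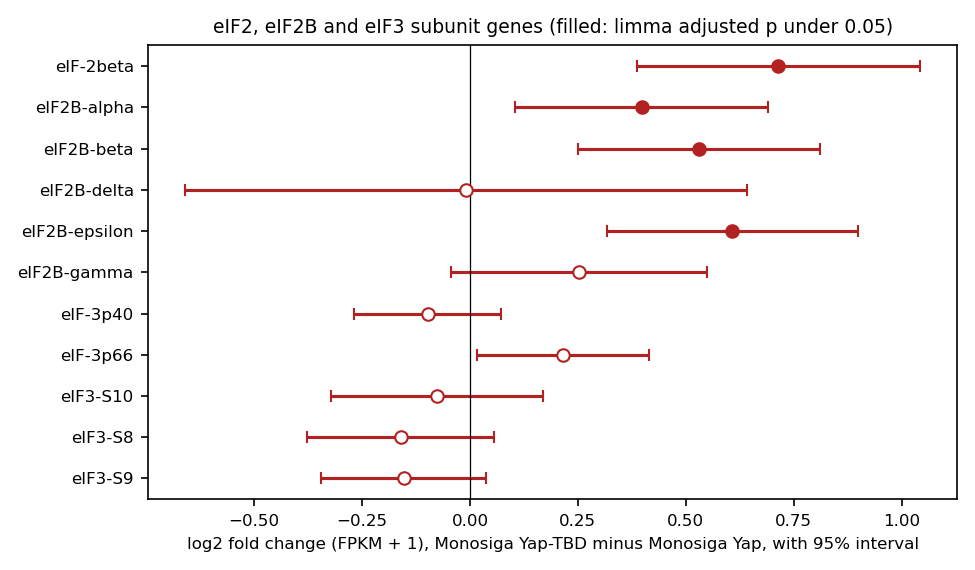
Log2 fold change in FPKM + 1, Monosiga Yap-TBD minus Monosiga Yap, for the member genes of eIF2, eIF2B and eIF3 (rows); points are limma estimates, bars the 95% interval, and filled points have an adjusted p under 0.05. Filled points are eIF-2beta and 3 of 5 eIF2B subunits, while the 5 eIF3 subunits among the members have open points, 4 of them left of 0. Subunit genes of eIF3 under other symbols are not shown.

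Among the other initiation factors eIF6 was the one that changed. This factor (2R 19736769 to 19737822, minus strand) keeps the large ribosomal subunit from joining too early and is also needed to make that subunit. It had 60.0, 79.6 and 73.7 FPKM with Monosiga Yap-TBD, 46.4, 56.6 and 60.7 FPKM with Trichoplax Yap S81A and 59.2, 52.4 and 68.9 FPKM with Yki S168A. It had 29.1, 34.3 and 53.4 FPKM with Monosiga Yap and 45.7, 44.9 and 39.1 FPKM in the control. Monosiga Yap-TBD lay above all libraries of the control and of Monosiga Yap, in which replicate 3 stood well above the other libraries. The mean with Monosiga Yap-TBD was 1.65-fold that of the control (log2 fold change 0.70 ± 0.19 SE, limma adjusted p = 0.0168) and 1.83-fold that of Monosiga Yap (log2 fold change 0.89 ± 0.19 SE, limma adjusted p = 0.00362), the largest estimate of any member against Monosiga Yap. Against the control the adjusted p was 0.0718 without Monosiga Yap-TBD replicate 2 and 0.0657 without control replicate 3. With Yki S168A and Trichoplax Yap S81A the means were 1.39-fold and 1.26-fold that of the control and did not pass (limma adjusted p = 0.149 and 0.323). The gene overlaps ytr on the same strand, and reads of the pair cannot be told apart here.

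The highly expressed eIF-5A, a factor modified with hypusine that helps elongation past difficult codons, was at 3333, 2950.4 and 3173 FPKM with Monosiga Yap-TBD, 3243, 3249 and 2959 FPKM with Trichoplax Yap S81A and 3526, 3323 and 3373 FPKM with Yki S168A. It was at 3926, 3511 and 3206 FPKM with Monosiga Yap and 3487, 3646 and 3502 FPKM in the control. Its mean was 0.889-fold that of the control with both Monosiga Yap-TBD and Trichoplax Yap S81A, and neither difference passed (limma adjusted p = 0.195 and 0.257). The scanning factor eIF-1A, the GTPase-activating factor eIF5 and the subunit-joining GTPase eIF5B were not called, with log2 fold changes against the control of 0.07, -0.01 and 0.09 with Monosiga Yap-TBD.

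The eIF4 group, which brings mRNA to the ribosome, held the members that fell. The helicase gene eIF-4a (2L 5981759 to 5985572, plus strand) had 2655, 2423 and 2548 FPKM with Monosiga Yap-TBD, 2788, 2588 and 2162 FPKM with Trichoplax Yap S81A and 2781, 2493 and 2313 FPKM with Yki S168A. It had 3225, 3155 and 2870.0 FPKM with Monosiga Yap and 3140.0, 3386 and 3112 FPKM in the control. Every library of the first 3 construct groups was below every control library. Its mean fell to 0.791 of the control mean with Monosiga Yap-TBD, 0.782 with Trichoplax Yap S81A and 0.787 with Yki S168A (limma adjusted p = 0.0317, 0.0388 and 0.0476), against 0.96 with Monosiga Yap, which was not called (limma adjusted p = 1). These calls were near the threshold: scaling the libraries by size factors ended all 3 (0.0808, 0.0862 and 0.123). Leaving out any library of Monosiga Yap-TBD or of the control ended the first (0.0543 to 0.116). Leaving out Trichoplax Yap S81A replicate 2 or 3 (0.0658 and 0.137) or any control library (0.0725 to 0.132) ended the second, and leaving out Yki S168A replicate 2 or 3 (0.121 and 0.174) or any control library (0.0827 to 0.153) the third. The main cap-binding protein gene, eIF-4E, was among the least variable of the members, with 402, 388 and 380.0 FPKM with Monosiga Yap-TBD, 359, 357 and 368 FPKM with Trichoplax Yap S81A and 353, 372 and 387 FPKM with Yki S168A. It had 379, 359 and 374 FPKM with Monosiga Yap and 383, 392 and 339.6 FPKM in the control. Its log2 fold change was 0.07 with Monosiga Yap-TBD against the control (95% interval -0.10 to 0.24). The scaffold gene eIF4G, the helicase cofactor gene eIF-4B and eIF4AIII, a helicase of the exon junction complex, were not called, with log2 fold changes of 0.26, 0.05 and 0.22 in that comparison.

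A scaffold paralogue known for its role in the fly testis, eIF4G2 (3R 19635550 to 19644364, minus strand), had 14.6, 13.5 and 12.05 FPKM with Monosiga Yap-TBD, 17.5, 18.9 and 19.8 FPKM with Trichoplax Yap S81A and 12.3, 15.002 and 14.1 FPKM with Yki S168A. It had 18.5, 18.5 and 15.8 FPKM with Monosiga Yap and 16.5, 16.1 and 20.8 FPKM in the control. The Monosiga Yap-TBD and Yki S168A libraries were below the lowest control library, whereas the Trichoplax Yap S81A libraries overlapped the control. The mean with Monosiga Yap-TBD was 0.751 of the control mean and passed narrowly (limma adjusted p = 0.0486); that call was lost on leaving out any 1 of the 6 libraries (0.052 to 0.199). The mean with Yki S168A was 0.775 of the control mean (limma adjusted p = 0.117). Of all members eIF4G2 had the smallest unadjusted p between Trichoplax Yap S81A and Yki S168A, with a 1.36-fold higher mean in the Trichoplax Yap S81A discs that did not pass (limma adjusted p = 0.423). The gene overlaps CG33111 on the same strand.

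The cap-binding paralogue eIF4E-3 (3L 8222333 to 8223668, plus strand), known from its role in spermatogenesis, was low in every construct group and higher in the control. It had 0.217, 0.401 and 0.615 FPKM with Monosiga Yap-TBD, 0.435, 0.987 and 0.418 FPKM with Trichoplax Yap S81A and 1.04, 0.0793 and 0.526 FPKM with Yki S168A. It had 0.701, 0.899 and 0.296 FPKM with Monosiga Yap and 2.50, 3.51 and 2.49 FPKM in the control. All 12 construct libraries were below the lowest control library. On whole fragments estimated from the steps between values, with the smallest value taken as 1 fragment, this was 3, 4 and 7 fragments with Monosiga Yap-TBD, 5, 12 and 6 with Trichoplax Yap S81A, 12, 1 and 9 with Yki S168A, 10, 12 and 4 with Monosiga Yap, and 29, 46 and 29 in the control. The mean was 0.145, 0.216 and 0.193 of the control mean in the first 3 groups and 0.223 of it with Monosiga Yap. Since the control libraries brought eIF4E-3 into the list, its differences from the control are given here as a description. Its calls are part of the counts of members called above, which are also given without it, and they are not taken as support.

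The other paralogues of low level, eIF4E-4, eIF4E-5, eIF4E-6 and eIF4E-7, each summed to at most 23 estimated fragments in any group, against 104 for eIF4E-3 in the control. Over the 3 libraries of a group, eIF4E-5 summed to 7 estimated fragments with Monosiga Yap-TBD, 9 with Trichoplax Yap S81A, 6 with Yki S168A, 10 with Monosiga Yap and 2 in the control. For eIF4E-7 the sums were 5, 4 and 5 fragments with Monosiga Yap-TBD, Trichoplax Yap S81A and Yki S168A, 9 with Monosiga Yap and 12 in the control, and eIF4E-4 had a single value above 0. The member eIF4E-6 had 1.01, 0.523 and 0.764 FPKM with Monosiga Yap-TBD, 0.608, 0.143 and 0.486 FPKM with Trichoplax Yap S81A and 0.903, 0.963 and 1.02 FPKM with Yki S168A. It had 0.487, 0.261 and 0.772 FPKM with Monosiga Yap and 1.06, 1.06 and 0.894 FPKM in the control. It was not called in any comparison. With Trichoplax Yap S81A its mean was 0.411 of the control mean (limma adjusted p = 0.123), on 9 estimated fragments against 21 in the control. The gene met the rule through control replicates 1 and 2, Monosiga Yap-TBD replicate 1 and Yki S168A replicate 3. Its difference from the control is therefore given as a description.

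**Figure D4:**
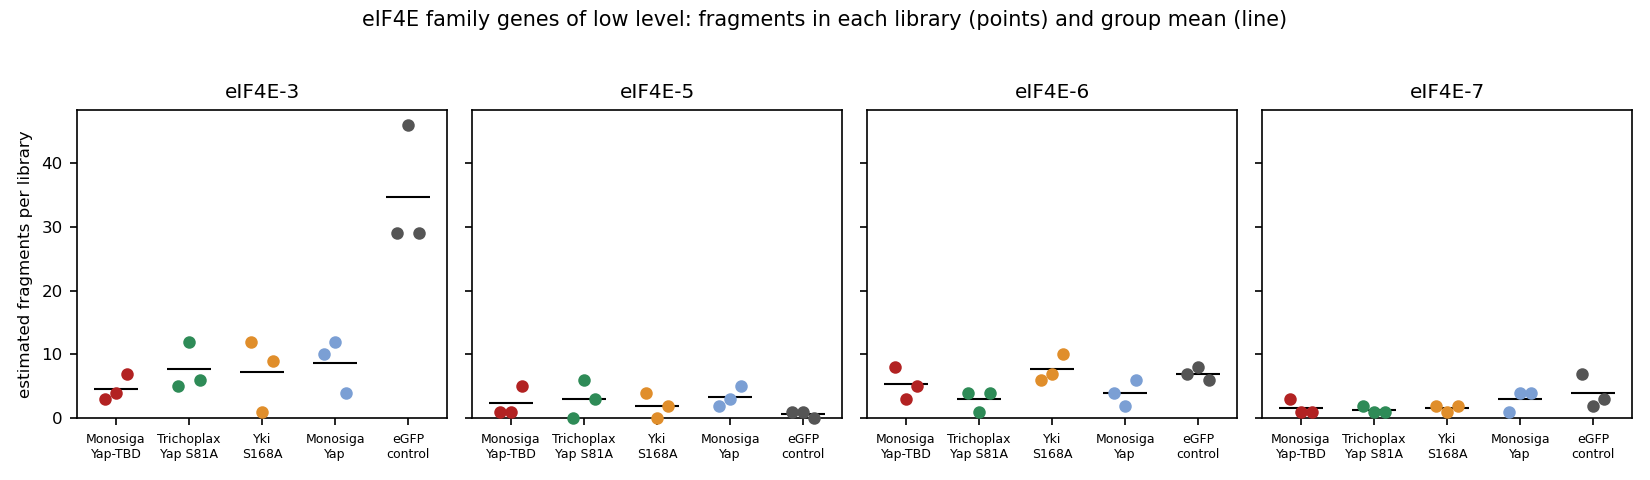
Estimated whole fragments of 4 eIF4E paralogues in each library (points, 3 per group) with the group mean (line), for the 4 construct groups and the eGFP control. For eIF4E-3 the control points are at 29, 46 and 29 fragments and no construct point is above 12, while for the other 3 genes every point is at 10 fragments or fewer.

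The construct groups that proliferate were compared directly. Between Trichoplax Yap S81A and Yki S168A, limma called none of the 45 members (3 at an unadjusted p under 0.05), against 0.51% of all genes; the median log2 fold change was -0.02 over the members and 0.02 over all genes, and that over the members was 0.016 without Trichoplax Yap S81A replicate 1 and 0.023 without Yki S168A replicate 3. For Aats-ile the log2 difference was -0.07 (95% interval -0.40 to 0.27), for eIF-2beta 0.07 (-0.26 to 0.40) and for eIF6 -0.14 (-0.55 to 0.28). Between Monosiga Yap-TBD and Yki S168A none of the members was called (2 at an unadjusted p under 0.05), against 7.13% of all genes, and none between Monosiga Yap-TBD and Trichoplax Yap S81A (3 at an unadjusted p under 0.05), against 6.32%. These last comparisons were added after the data were seen. No member was thus shown to differ between Monosiga Yap-TBD and the other proliferating groups, although more members were called for it against the control. For Aats-asn the log2 difference was 0.27 (95% interval -0.07 to 0.61) between Monosiga Yap-TBD and Yki S168A, and 0.23 (-0.11 to 0.57) between Monosiga Yap-TBD and Trichoplax Yap S81A.

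Other genes of translation were read beside the members. Of 27 further initiation factors and regulators, 24 were tested, and with Monosiga Yap-TBD 3 rose and 2 fell against the control (20.8% called, against 24.6% of all genes). Adam, whose current name is eIF3j, averaged 124.7 ± 10.2 FPKM with Monosiga Yap-TBD and 76.2 ± 6.68 FPKM in the control (SD, n = 3 libraries each, limma adjusted p = 0.00193). The ribosomal protein kinase gene S6k averaged 32.5 ± 2.23 FPKM with Monosiga Yap-TBD and 22.6 ± 2.42 FPKM in the control (limma adjusted p = 0.0151), and dm, the fly Myc gene, 63.3 ± 9.54 FPKM with Monosiga Yap-TBD and 47.0 ± 3.98 FPKM in the control (limma adjusted p = 0.033). The call for S6k was lost without Monosiga Yap-TBD replicate 1 or control replicate 1 or 2 (0.0506 to 0.0644), and that for dm without Monosiga Yap-TBD replicate 1 or 3 or control replicate 1 or 2 (0.082 to 0.118). The eIF3l gene CG5642 fell to 225.5 ± 16.9 FPKM with Monosiga Yap-TBD, against 305 ± 14.4 FPKM in the control (limma adjusted p = 0.0124, and 0.0611 without Monosiga Yap-TBD replicate 2). The fly ATF4 gene crc, a factor that is translated when eIF2 is phosphorylated and known in several animals to switch on synthetase genes, fell to 952 ± 43.0 FPKM with Monosiga Yap-TBD, against 1358 ± 58.9 FPKM in the control (limma adjusted p = 0.000253). With Trichoplax Yap S81A and Yki S168A the only gene called in this list was CG9769 (eIF3f1). This was 4.17% called in each, against 12.2% and 11.9% of all genes. CG9769 fell to 407 ± 59.2 FPKM with Trichoplax Yap S81A (limma adjusted p = 0.0249) and 397 ± 25.9 FPKM with Yki S168A (limma adjusted p = 0.0187), against 544 ± 62.1 FPKM in the control. The first call was lost without Trichoplax Yap S81A replicate 3 or control replicate 1 or 2 (0.0585 to 0.115), and the second without Yki S168A replicate 2 or 3 or control replicate 2 (0.0621 to 0.0923). Against Monosiga Yap, 2 of the 24 rose with Monosiga Yap-TBD (Adam and S6k) and 2 fell (crc and CG5642). This was 16.7% called, against 26.5% of all genes. Without Monosiga Yap-TBD replicate 1 the call for S6k was lost (limma adjusted p = 0.0554). Limma called none with Monosiga Yap against the control or between Trichoplax Yap S81A and Yki S168A (0 at an unadjusted p under 0.05 in both).

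Of 11 elongation and termination genes, 2 rose and 1 fell with Monosiga Yap-TBD against the control (27.3% called, against 24.6% of all genes). The exchange factor gene eEF1delta averaged 427 ± 32.4 FPKM with Monosiga Yap-TBD and 283 ± 33.7 FPKM in the control (limma adjusted p = 0.0158), and the release factor gene Elf (eRF3) 91.8 ± 4.77 FPKM with Monosiga Yap-TBD and 66.4 ± 6.30 FPKM in the control (limma adjusted p = 0.0226). The eEF1delta call was lost without Monosiga Yap-TBD replicate 2 or control replicate 3 (0.0659 and 0.0718), and that for Elf without Monosiga Yap-TBD replicate 1 or 2 or control replicate 2 or 3 (0.0603 to 0.0869). With Yki S168A 18.2% of these genes were called, against 11.9% of all genes. There eEF1delta also rose (limma adjusted p = 0.0425), a call lost on leaving out any of the 6 libraries (0.0569 to 0.16). Over Monosiga Yap, 3 of the 11 rose with Monosiga Yap-TBD (eEF1delta, Elf and Ef1beta) and 1 fell (36.4% called, against 26.5% of all genes). Those calls for Elf and Ef1beta were each lost in 4 of the 6 fits that left out a library. Ef1alpha100E, one of the genes for elongation factor 1 alpha, had 25.5, 19.1 and 20.5 FPKM with Monosiga Yap-TBD, 24.6, 27.1 and 28.1 FPKM with Trichoplax Yap S81A, and 48.5, 69.3 and 42.8 FPKM with Yki S168A. It had 126.9, 149 and 143 FPKM with Monosiga Yap and 125, 118 and 125 FPKM in the control. It fell with the first 3 constructs (limma adjusted p = 1.08e-07, 9.27e-07 and 0.000249) and was lower with Trichoplax Yap S81A than with Yki S168A (limma adjusted p = 0.00958), a call lost without Trichoplax Yap S81A replicate 1 (0.0546) or in a fit of these 2 groups alone (0.119). Of 4 tested enzymes of serine and one-carbon metabolism, 3 fell with Monosiga Yap-TBD against the control (aay, CG11899 and CG6287), against 12.0% of all genes, and the call for CG6287 was lost without Monosiga Yap-TBD replicate 1 or 3 or control replicate 1 or 2 (0.0889 to 0.151). The phosphoserine phosphatase gene aay averaged 4.39 ± 1.29 FPKM with Monosiga Yap-TBD and 27.9 ± 5.03 FPKM in the control (limma adjusted p = 9.99e-05). Over Monosiga Yap only aay fell with Monosiga Yap-TBD (1 of 4), against 12.2% of all genes. None of the 4 was called against the control with Trichoplax Yap S81A, Yki S168A or Monosiga Yap, where 12.2%, 11.9% and 0.326% of all genes were called. The aay mean was 38.6, 48.6 and 15.2 FPKM in those groups. In the authors' deposited table, the natural log ratios over the control were 0.478, 0.348, 0.388 and -0.093 for Aats-asn and 0.533, 0.512, 0.583 and 0.0473 for Aats-ile, for Monosiga Yap-TBD, Trichoplax Yap S81A, Yki S168A and Monosiga Yap in that order. For eIF-4a the deposited ratio was 0.0 with each construct, unlike the falls in mean FPKM given above.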

How the data were processed

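Per the labels' protocols, RNA of the GFP-positive eye disc domain was extracted with RNeasy columns and polyadenylated RNA was made into TruSeq libraries. The submitters' processing notes name build dm3 and the tools Cuffdiff 1.0.2, Cufflinks, TopHat 1.0.14 and CASAVA 1.7.0; their settings, the annotation and the use of strand are not given in the sources used here. The deposited FPKM values of 14671 genes were made by the authors, and the deposited ratios of each construct over the control are on the natural log scale. Read counts were not used here.

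Genes with at least 1 FPKM in at least 3 libraries (9213 genes) were taken to log2(FPKM + 1), which understates changes of low genes, and fitted with all 5 groups in limma 3.58.1 (R 4.3.3) with a variance trend and robust moderation. Tests were two-sided, with Benjamini-Hochberg adjustment over all genes (residual degrees of freedom 10, prior median 3.75; the standard error of log2 fold changes had a median of 0.193). On data simulated for Monosiga Yap-TBD against the control (9213 genes), 73.5% of 200 genes changed 2-fold were called and 5.16% of calls were false. The noise was drawn independently and the other genes were left unchanged. Most member changes were smaller than 2-fold, so these rates do not carry over to the member calls. Values were given per library for up to 5 called members with the largest rise and fall in each of 6 comparisons and for the most abundant member of each role and the eIF4E family; eIF2B-epsilon, eIF2B-delta, Aats-glupro, Aats-pro and Aats-leu, and the levels of Ef1alpha100E, were added after their values were seen. The members and lists were chosen with earlier results of these data known. Alternatives were a pseudocount of 0.1, no filter, a fit of the compared groups alone, size factor scaling, a replicate block and leaving out each library; reading them for the further lists was added after the data were seen. Fragments were estimated only for eIF4E genes, and the depth itself is known only relative to control replicate 1. Of the members, 12 overlap a gene on the other strand (Aats-cys, Aats-gln, Aats-ala-m, Aats-pro, Aats-ser, eIF-1A, eIF-3p40, eIF4AIII, eIF2B-alpha, eIF2B-gamma, eIF2B-delta and eIF2B-epsilon) and 2 a gene on the same strand, and their reads may be shared. Tables and figures were made in python 3.11.15 (pandas 2.3.3, numpy 2.4.6, matplotlib 3.10.9).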

Additional observations from a re-analysis of the deposited data

How the results depend on the processing

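Among the members chosen by rule for values per library, no call changed direction under these alternatives. The direction was not read for the other members called, Aats-cys, Aats-his, eIF2B-alpha and eIF2B-epsilon. The median log2 fold change over the members, near 0 for Monosiga Yap against the control (-0.008), was 0.015 with size factor scaling and 0.008 without Monosiga Yap replicate 2, and for Trichoplax Yap S81A against Yki S168A (-0.020) it was 0.016 and 0.023 without Trichoplax Yap S81A replicate 1 and Yki S168A replicate 3. Limma called none of the members for Monosiga Yap against the control or for Trichoplax Yap S81A against Yki S168A under any of them. The other counts moved mostly when a library was left out, which lowers the number of samples: they ran between 5 and 10 for Monosiga Yap-TBD against the control (13 with all libraries), 2 and 5 for Trichoplax Yap S81A (5), 2 and 3 for Yki S168A (4), and 6 and 18 for Monosiga Yap-TBD over Monosiga Yap (11), where the median log2 fold change ran between 0.105 and 0.312. A fit of the compared groups alone called 3 members for Trichoplax Yap S81A against the control, and 5 where Monosiga Yap-TBD was set against Monosiga Yap. Aats-asn, Aats-ile and Aats-thr stayed called for Monosiga Yap-TBD against the control under all alternatives, Aats-ile for Yki S168A, Aats-thr for Trichoplax Yap S81A, and Aats-asn, Aats-ile, eIF-2beta, eIF2B-epsilon and eIF6 for Monosiga Yap-TBD against Monosiga Yap. The replicate block gave 10, 4 and 4 members for Monosiga Yap-TBD, Trichoplax Yap S81A and Yki S168A against the control, and 10 for Monosiga Yap-TBD over Monosiga Yap. Same-numbered libraries did not deviate together in every pair, so the numbers were not taken as pairs. The correlations were -0.085, -0.070 and 0.070 for Monosiga Yap-TBD and the control, and 0.108, -0.401 and -0.298 for Monosiga Yap-TBD and Monosiga Yap. Between those last groups, differently numbered libraries reached 0.442 (Monosiga Yap-TBD replicate 3 with Monosiga Yap replicate 2) and 0.325 (replicate 2 with replicate 3). The counts include eIF4E-3, which the control libraries brought into the list; it is not named among the calls that stayed. Low depth limits the eIF4E paralogues, which rest on 46 or fewer estimated fragments per library.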
